A study of Rattus norvegicus with 22 samples.

Results

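Of the 22 kidneys sequenced, 5 carried RNA of the urothelium, the epithelium that lines the renal pelvis, ureter and bladder, and 17 carried little or none. The groups were chosen by 1 measured value alone. A rat was placed in the group with urothelium when Upk3a, a uroplakin, reached 1 TPM (a level scaled for transcript length and library size), and in the group without urothelium when it stayed below. Upk3a stood at 3.30 TPM in untreated rat 23, 3.35 in i.v. ASC rat 10, 22.3 in i.v. ASC rat 13, 68.3 in i.v. ASC rat 3 and 130 in i.v. ASC rat 9. The highest value just outside the limit was 0.478 TPM, in i.p. ASC rat 7, and the lowest was 0. These values made the groups, and Upk3a is left out of everything that follows.

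All animals were male PKD/Mhm (Cy/+) rats, heterozygous carriers of a missense mutation in Anks6 that causes polycystic kidney disease, killed at 8 months of age, and no rat without the mutation was among them. The groups were 6 untreated rats, 6 rats given human adipose-derived stromal cells (ASC) intraperitoneally (i.p. ASC), 6 given ASC intravenously (i.v. ASC), and 4 given the conditioned medium of ASC (ASC-derived CM), with monthly injections over 6 months. RNA came from the snap-frozen left kidney, described as whole kidney tissue, with 1 library from each rat. The limit was reached in 1 of 6 untreated, 0 of 6 i.p. ASC, 4 of 6 i.v. ASC and 0 of 4 ASC-derived CM rats, a count that the Upk3a rule itself produced and that was given no test. Group means of treatment and urothelium are therefore partly tied together, and only the i.v. ASC and untreated groups held rats of both kinds.

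Urothelium is a stratified epithelium. Its umbrella cells face the urine and carry plaques of uroplakins, a family of membrane proteins that pair with each other and keep the surface tight to water and solutes. Beneath them lie intermediate cells and a basal layer that makes keratins such as Krt5 and the transcription factor p63, while grainyhead-like 3, PPARgamma and FoxA1 are known to drive the umbrella cell programme. In the kidney it covers the pelvis and sits next to the papilla, the tip of the inner medulla.

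Libraries held between 12195682 and 14734772 estimated counts, with 12481182 to 14734772 in the rats with urothelium and 12195682 to 14552261 in those without, so that depth overlapped between the groups. 8 genes had a higher TPM in each of the 5 rats with urothelium than in any of the 17 without, 0.0618% of the 12945 genes tested, and 0 had a lower TPM in each of the 5. The 8 were Upk1a, Upk1b, Upk2, Sprr1a, Krt5, Tp63, Sptssb and Anxa8. They include uroplakins, which umbrella cells carry, and the basal genes Krt5 and Tp63. For Tp63 the gap was only 0.388 against 0.382 TPM. Other basal and umbrella cell genes, among them Krt14, Krt15, Grhl3, Foxa1 and Pparg, overlapped between the groups. With treatment in the model, the edgeR quasi-likelihood test, adjusted after Benjamini and Hochberg, called 0 genes (0.0% of 12945 higher and 0.0% lower), with 763 genes, 305 of them higher, at an unadjusted p-value below 0.05 and a smallest adjusted p-value of 0.164. Without i.v. ASC rat 10 it called 9 genes, all higher, and without any other rat 0. DESeq2 on the same design called 12 genes, all higher with urothelium, 0.0786% of the 15265 genes it tested. limma on log2 TPM called 0, with 698 genes at an unadjusted p-value below 0.05. When the group was replaced by the amount of Upk3a (log2 of TPM + 0.5, with treatment in the model), edgeR called 44 genes higher and 4 lower, 0.34% and 0.0309% of 12945. Without a treatment term it called 36 genes higher and 1 lower by group, 0.281% and 0.00781% of 12803, and of the 31 among the 44 that were tested there, 23 were among the 36. Within the 6 i.v. ASC rats alone, the amount of Upk3a gave 195 genes higher and 265 lower, 1.55% and 2.11% of 12569. Of the 44, 37 were among the 195. The same 6 rats were in the fit that gave the 44, so this overlap is no repeat in other animals. Since the rule and the amount both come from Upk3a in the same libraries, each p-value says that a gene moved with Upk3a across these rats. Genes named below were, apart from the defining members of each list, chosen after their values were seen, because no gene passed the test that was to choose them.

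Among the uroplakins, Upk1a, the partner of Upk2 in the urothelial plaque, reached 6.90 TPM in untreated rat 23, 9.11 in i.v. ASC rat 10, 64.4 in i.v. ASC rat 13, 132 in i.v. ASC rat 3 and 189 in i.v. ASC rat 9. In rats without urothelium it ranged from 0.321 to 6.29 TPM around a median of 0.918. The 2 groups did not overlap, although the lowest rat with urothelium and i.p. ASC rat 7 were close to each other. The log2 fold change of the group was 5.40 (SE 1.11, edgeR adjusted p = 0.243), and each doubling of Upk3a went with a log2 difference of 1.06 (SE 0.114, edgeR adjusted p = 2.06e-05).

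Upk2 stood at 2.53, 4.70, 20.1, 80.6 and 133 TPM in the same 5 rats, and was listed at 0 in 11 of the 17 others, with a highest value of 2.06 TPM in i.p. ASC rat 7. Its log2 fold change of 6.93 (SE 1.28, edgeR adjusted p = 0.164) was the largest of the listed genes tested. Upk1b, the tetraspanin that pairs with Upk3a, reached 1.60, 2.68, 9.43, 31.0 and 46.9 TPM, against 0.255 to 1.38 TPM in rats without urothelium. The gap between the groups was small for Upk1b, since its lowest rat with urothelium held 24 counts and its highest rat without held 22. Its log2 fold change was 3.16 (SE 0.822, edgeR adjusted p = 0.694), and 0.70 for each doubling of Upk3a (SE 0.0548, edgeR adjusted p = 3.1e-07). The uroplakin-like Upk3bl1 overlapped between the groups, with 19.9 to 47.8 TPM in rats with urothelium and 15.9 to 37.6 TPM in those without (edgeR adjusted p = 0.708).

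**Figure D1:**
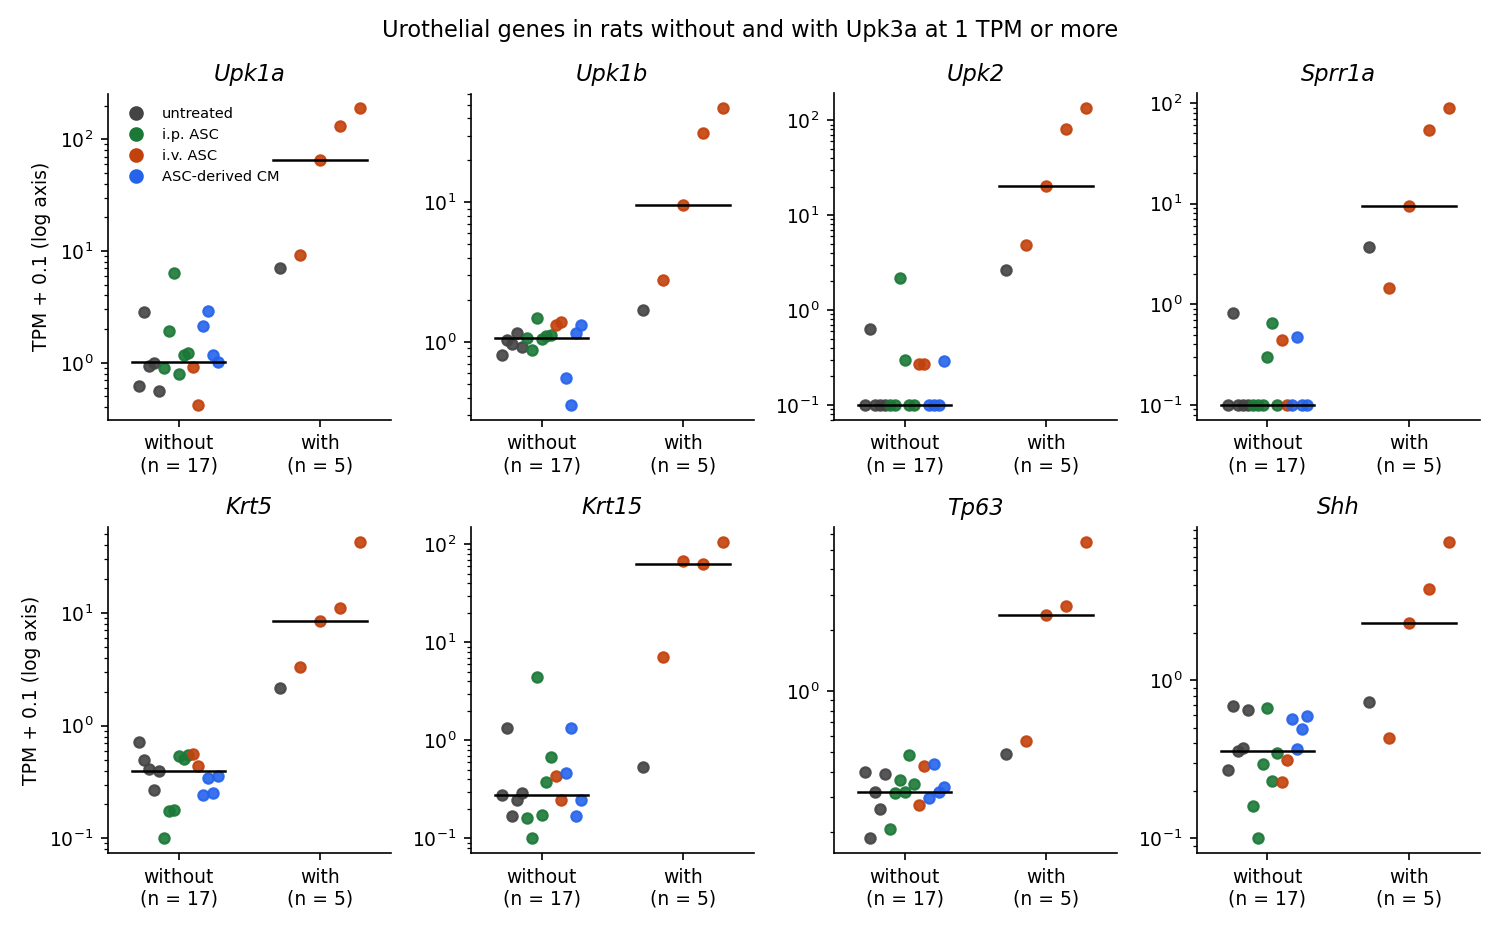
TPM + 0.1 on a log axis for 8 genes in the 17 rats without and the 5 rats with urothelium, 1 point for each rat, coloured by treatment, with a black line at the group's median. Upk1a, Upk1b, Upk2, Sprr1a, Krt5 and Tp63 do not overlap between the groups, while untreated rat 23 lies among the rats without urothelium for Krt15, and i.v. ASC rat 10 does so for Shh.

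Over the 4 uroplakins tested, 3 were higher with the amount of Upk3a, and the median log2 fold change of the group was 4.28 against 0.00 over all genes tested. It is the list with the largest median. Of the 7 urothelial keratins tested 3 passed with the amount, and of the 15 urothelial transcription factors 5 passed, all higher. The share higher with the amount over all 12945 genes tested was 0.34%. The group's median was 0.63 for the keratins and 0.46 for the factors, and without untreated rat 23 it was 1.17 and 0.74. Without i.v. ASC rat 8 the median of the factors was 0.24.

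The basal keratin Krt5 was present at 2.06 TPM in untreated rat 23, 3.24 in i.v. ASC rat 10, 8.39 in rat 13, 10.95 in rat 3 and 42.7 in rat 9, while the 17 other rats reached at most 0.612. Its log2 fold change was 4.19 (SE 0.797, edgeR adjusted p = 0.164), and DESeq2 called it with an adjusted p = 4.75e-06. Krt15, a keratin of basal cells in stratified epithelia, followed another order. It was at 0.433 TPM in untreated rat 23 and 7.04 in i.v. ASC rat 10, against 68.1, 62.4 and 106 TPM in i.v. ASC rats 13, 3 and 9, and untreated rat 23 lay within the range of the rats without urothelium (0 to 4.32 TPM). For each unit of Upk1a, Krt15 amounted to 0.0627 in untreated rat 23 and to between 0.473 and 1.06 in the 4 i.v. ASC rats. Krt14, the basal partner of Krt5, was at 0.167, 0.601, 7.41, 3.76 and 7.98 TPM, so that 3 of 5 rats lay above the 0.732 TPM of the highest rat without urothelium (edgeR adjusted p = 0.00993 with the amount of Upk3a).

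The simple-epithelial keratins that kidney tubules also make did not separate the rats. Krt8 stood at 355 to 388 TPM with and 262 to 460 TPM without urothelium, and Krt18 and Krt19 overlapped as well. Krt20, a marker of terminally differentiated umbrella cells, was too low to be tested. It reached 3.57 TPM in i.v. ASC rat 9 and 1.03 in i.v. ASC rat 3, with at most 0.5 TPM in the rats without. Untreated rat 23 and i.v. ASC rats 10 and 13, at 0.285, 0.0759 and 0.179 TPM, lay inside the range of the rats without. Krt13 stayed at or below 0.177 TPM in all 22 rats.

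Tp63, the basal-cell transcription factor, was at 0.388, 0.467, 2.27, 2.55 and 5.37 TPM in untreated rat 23 and i.v. ASC rats 10, 13, 3 and 9, against a highest value of 0.382 TPM among the others. This separation held in TPM only, since untreated rat 23 held 15.7 estimated counts of Tp63 and i.p. ASC rat 16, without urothelium, 17.6. With the amount of Upk3a its log2 difference was 0.60 for each doubling (SE 0.0648, edgeR adjusted p = 2.07e-05). Grhl3, a grainyhead factor of umbrella cells and skin, was at 0.784, 0.443, 1.86, 3.68 and 5.93 TPM, and overlapped with the 0.0469 to 0.863 TPM of the rats without urothelium through untreated rat 23 and i.v. ASC rat 10. Foxa1 and Pparg likewise had 3 of 5 rats above all the rats without urothelium. Pparg, the nuclear receptor of fat and urothelial differentiation, was at 1.16 and 1.91 TPM in untreated rat 23 and i.v. ASC rat 10, inside the 0.897 to 2.53 TPM of the rats without urothelium, and at 5.02, 6.53 and 11.1 TPM in i.v. ASC rats 13, 3 and 9. Its log2 difference for each doubling of Upk3a was 0.35 (SE 0.0493, edgeR adjusted p = 0.000505).

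Other factors of the same list were expressed in every kidney at similar levels. Grhl2, which tubule epithelium also uses, had 6.56 to 12.7 TPM with and 4.64 to 8.83 TPM without urothelium. Elf3 and Gata3, both named in urothelial differentiation, had 132 to 238 and 66.0 to 89.1 TPM in the 5 rats and did not pass (edgeR adjusted p = 0.656 and 0.502 with the amount). Klf5 passed with the amount of Upk3a (edgeR adjusted p = 0.0486) at a small log2 difference of 0.13 for each doubling.

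The promoters of these genes were searched for the sites of 2 of the factors that moved with them, since Grhl3 binds a grainyhead site and Pparg a direct repeat. Of the 44 genes higher with the amount of Upk3a, 31 had a promoter in the RefSeq table (build GRCr8, from 250 bases before to 50 after the start). The grainyhead letters AACNGGTT, read on both strands, were found in the promoters of 2 genes, 6.45% of the 31, against 2.10% of all 33469 promoters in the table. The first share counts genes, which had 33 promoters between them, and the second counts single promoters. With 2 genes matched, no excess is read from these shares. The PPAR direct repeat was found in 0 of the 31 and in 0.0538% of all promoters. A match describes the letters only. The 250 bases before the start are given for both genes, with the match in capitals, to show where it lies. The match begins 227 bases before the start of Upk1b (chr11:75459131-75459380, plus strand) and 184 bases before that of Fat2, a giant protocadherin of epithelial cells (chr10:39956903-39957152, minus strand).
Upk1b: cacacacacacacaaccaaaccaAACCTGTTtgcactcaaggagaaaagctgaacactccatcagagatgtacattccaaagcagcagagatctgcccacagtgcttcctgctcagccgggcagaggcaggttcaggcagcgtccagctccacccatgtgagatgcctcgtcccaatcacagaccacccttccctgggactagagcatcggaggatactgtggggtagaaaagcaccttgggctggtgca
Fat2: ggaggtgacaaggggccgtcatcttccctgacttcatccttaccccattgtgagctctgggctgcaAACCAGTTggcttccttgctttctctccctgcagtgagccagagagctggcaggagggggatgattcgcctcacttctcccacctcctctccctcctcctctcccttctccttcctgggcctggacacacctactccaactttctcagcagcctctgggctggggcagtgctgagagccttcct

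Fat2 itself was low, at 0.125, 0.218, 1.09, 1.56 and 3.57 TPM in the 5 rats in the order above and at most 0.158 TPM in the others. Untreated rat 23 lay inside the range of the rats without urothelium. The difference passed with DESeq2 (log2 fold change 4.15, SE 0.799, adjusted p = 0.000639) and with the amount of Upk3a (edgeR adjusted p = 2.74e-05).

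Surface and barrier genes of stratified epithelia separated the rats to different degrees. Sprr1a, a small proline-rich protein that is crosslinked into the cornified envelope, was at 3.60 TPM in untreated rat 23, 1.37 in i.v. ASC rat 10, 9.32 in rat 13, 53.4 in rat 3 and 88.5 in rat 9. It was listed at 0 in 12 of the 17 other rats, which reached at most 0.713 TPM. The log2 fold change was 6.28 (SE 1.19, edgeR adjusted p = 0.164). Sprr3 was at 0 in all 22 rats, and Tgm1 overlapped between the groups with 1.63 to 3.94 against 1.42 to 4.38 TPM. Evpl, the envoplakin that links desmosomes to the envelope, passed with the amount at 5.57 to 10.2 against 3.61 to 6.14 TPM, with 3 of 5 rats above all those without (edgeR adjusted p = 0.0177). Of 9 genes of this list tested, 2 passed with the amount, against 0.34% higher over all genes tested. The median log2 fold change of the list was 0.07.

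Sptssb, a subunit of the enzyme that starts sphingolipid synthesis, was at 0.488, 0.580, 5.35, 17.3 and 33.3 TPM, against at most 0.290 TPM in the rats without urothelium. It had the smallest p-value of all genes with the amount of Upk3a (log2 difference 1.13 for each doubling, SE 0.0829, edgeR adjusted p = 1.63e-07). Anxa8, an annexin of stratified epithelium, was at 0.645, 0.517, 7.28, 9.06 and 20.7 TPM against at most 0.328 TPM. The tested depth was thin at the low end for both, with 9 counts of Sptssb and 10 of Anxa8 in the lowest rat with urothelium.

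Junction genes of the tubule overlapped between the groups. Of 14 tight junction genes 0 passed with the amount, and the median log2 fold change was 0.06. Cldn1 was at 8.81 to 25.1 TPM with and 8.95 to 33.5 TPM without urothelium, and Cldn3 at 60.7 to 121 and 53.7 to 115 TPM. Cldn23 was at 7.78, 9.06 and 9.03 TPM in i.v. ASC rats 13, 3 and 9, above the 6.46 TPM of the highest rat without urothelium. Untreated rat 23 and i.v. ASC rat 10 had 3.65 and 4.14 TPM of it. The gap junction genes Gjb6 and Gjb5, both connexins of stratified epithelia, were higher with the amount. Gjb6 was at 0 in 14 of the 17 rats without urothelium and at 0.0692, 0.166, 0.782, 1.49 and 2.97 TPM in the 5 rats with it.

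**Figure D2:**
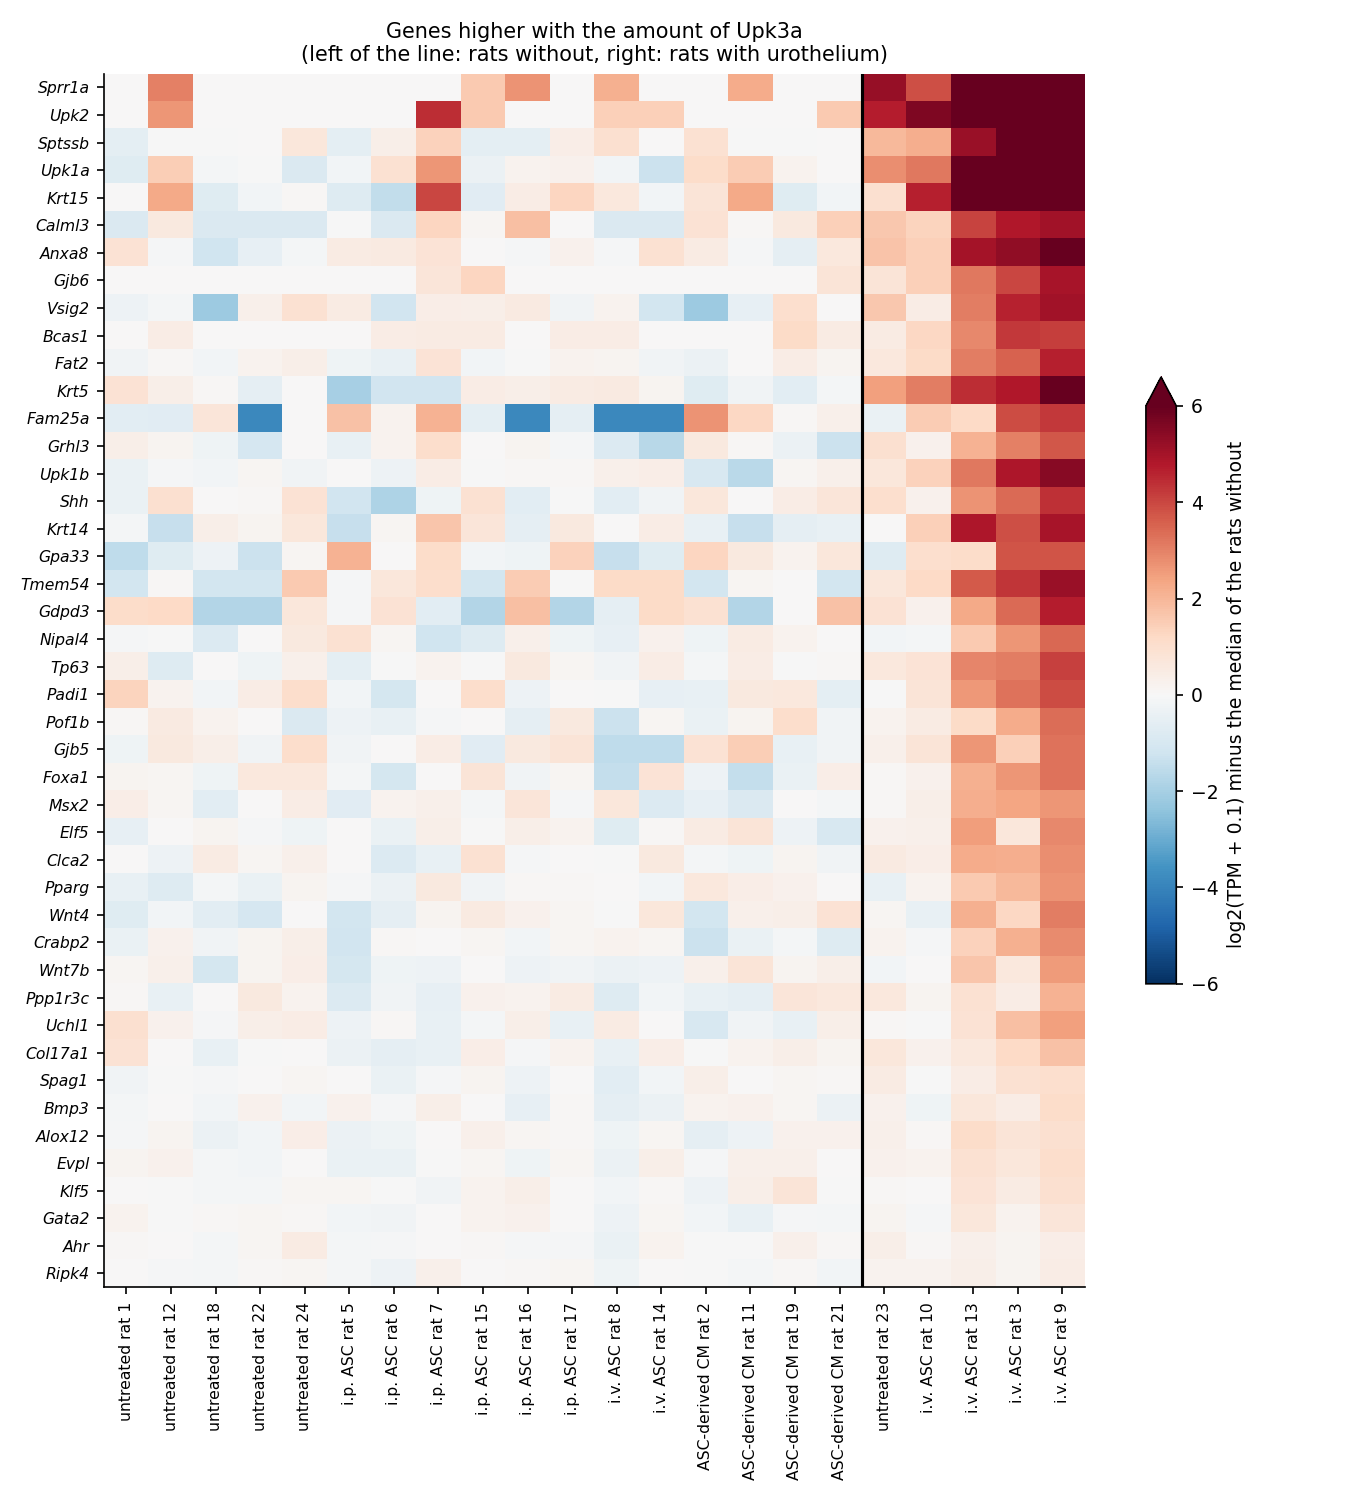
Log2(TPM + 0.1) of the 44 genes that were higher with the amount of Upk3a, minus the median of the 17 rats without urothelium, drawn in colours that stop at 6, with 1 column for each rat and the 5 rats with urothelium to the right of the line in the order of Upk3a. The 3 columns on the far right are red over most genes, the 2 beside the line, untreated rat 23 and i.v. ASC rat 10, are pale for many of them, and i.p. ASC rat 7 stands out among the others for the uroplakin and keratin rows.

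The 44 genes did not mark all 5 rats alike. i.v. ASC rat 9 had the highest TPM of the 5 for 42 of them, whereas the lowest was in untreated rat 23 for 23 genes and in i.v. ASC rat 10 for 20. The 44 were chosen for rising with Upk3a. Upk3a was itself highest in i.v. ASC rat 9 and lowest in untreated rat 23 and i.v. ASC rat 10. This order therefore largely follows from the choice of the genes. For 32 of the 44, the lowest rat with urothelium was still above the median of the rats without. That count too is over genes chosen by Upk3a, and the share over all genes tested is not reported here. Among those without, i.p. ASC rat 7 was highest for 10 genes, the most of any rat, and its 6.29 TPM of Upk1a and 4.32 TPM of Krt15 compare with medians of 0.918 and 0.178 TPM. Without i.v. ASC rat 9 the count of genes higher with the amount was 17, and all 17 had also passed with it. Leaving out the other rats in turn gave 52 genes without untreated rat 23, 61 without i.v. ASC rat 3, 32 without i.v. ASC rat 10 and 47 without i.v. ASC rat 13. The 17 genes left without i.v. ASC rat 9 were also those that passed in all 5 of these fits, namely Anxa8, Bcas1, Calml3, Fat2, Gjb6, Grhl3, Krt5, Pparg, Shh, Spag1, Sprr1a, Sptssb, Tp63, Upk1a, Upk1b, Upk2 and Vsig2. The fits share most of their rats, all rest on Upk3a and were chosen after the data were seen. Passing in all 5 is therefore no separate support for these genes.

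Shh, the hedgehog ligand that urothelium is known to send to the muscle and stroma around it, was at 0.624 TPM in untreated rat 23, 0.333 in i.v. ASC rat 10, 2.22 in rat 13, 3.69 in rat 3 and 7.43 in rat 9. The rats without urothelium had 0 to 0.585 TPM, so that 4 of the 5 lay above them all. It passed with the amount of Upk3a (log2 difference 0.69 for each doubling, SE 0.0936, edgeR adjusted p = 0.000306). The receptors and targets of the pathway did not pass. Ptch1, receptor and target in one, was at 5.34 to 10.4 TPM with and 3.42 to 9.36 TPM without urothelium, Gli1, the transcription factor that responds to the ligand, at 0.792 to 1.78 and 0.656 to 3.97 TPM, and Bmp4, a stromal target, at 26.6 to 46.1 and 19.8 to 50.7 TPM. Ihh and Dhh, the other ligands, overlapped too. Of the 15 hedgehog genes tested, Shh was the 1 that passed, against 0.34% higher over all genes tested. The list had a median log2 fold change of 0.06, which was -0.30 without untreated rat 23.

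The Wnt ligands Wnt7b and Wnt4, both made by collecting duct as well as by other epithelia, were higher with the amount of Upk3a (edgeR adjusted p = 0.029 and 0.0486). Wnt7b was at 3.29, 3.75, 11.9, 5.70 and 22.1 TPM in the 5 rats in the order above and at 1.72 to 6.33 TPM in the others. i.v. ASC rats 13 and 9 were above the rats without urothelium, and rat 3 was not, although its uroplakins exceeded those of rat 13. Wnt4 had 7.67, 4.02 and 14.9 TPM in i.v. ASC rats 13, 3 and 9, all above the 3.09 TPM of the highest rat without.

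Some markers of the inner medulla followed the same order as Wnt7b. Slc14a2, the urea transporter of the inner medullary collecting duct, was at 20.4 TPM in i.v. ASC rat 13 and 29.6 in i.v. ASC rat 9, but at 0.0386 in untreated rat 23, 0.359 in i.v. ASC rat 10 and 0.851 in i.v. ASC rat 3. ASC-derived CM rat 11, without urothelium, had 20.4 TPM as well, and the highest of the other 19 rats was 8.56 TPM. In that rat Upk1a was at 2.81 TPM and Upk2 at 0. The kidneys rich in this papillary gene and those rich in uroplakins were therefore not all the same kidneys. Aqp2, the water channel of the collecting duct, was at 1501 and 1582 TPM in rats 13 and 9 against 406 to 1171 TPM without urothelium, while the other 3 rats had 650 to 806 TPM. Elf5, a collecting duct factor, and Gata2 passed with the amount (edgeR adjusted p = 0.0486 and 0.0285), with 6.27 and 8.30 TPM of Elf5 in rats 13 and 9 and 1.25 to 1.71 TPM in the other 3. Slc14a2 and Aqp2 did not pass (edgeR adjusted p = 0.247 and 0.286 with the amount). Over the 15 genes of this list 2 passed, against 0.34% higher over all genes tested. The median log2 fold change of the list was 0.30, with 0.60 without untreated rat 23 and 0.15 without i.v. ASC rat 9. In whole-tissue RNA, fewer cells of a type and less RNA in each cell cannot be told apart.

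Uchl1 and Crabp2 were among the other genes that passed with the amount. Uchl1, a ubiquitin hydrolase best known from neurons, was at 102 and 159 TPM in i.v. ASC rats 3 and 9, against at most 56.1 TPM without urothelium. Crabp2, the carrier that brings retinoic acid to its receptors, was at 4.58, 3.80, 10.5, 17.6 and 28.8 TPM, with at most 5.16 TPM in the others. Psca, a surface antigen of bladder and prostate, was at 118, 46.9 and 87.5 TPM in rats 13, 3 and 9 against at most 23.6 TPM, and missed the threshold with the amount (edgeR adjusted p = 0.0536) while it passed without a treatment term (edgeR adjusted p = 0.00069). Ly6d, a surface antigen of stratified epithelium listed with Psca, was at 0 to 0.317 TPM with and 0 to 1.12 TPM without urothelium. Of the 15 tested genes of the list that holds Psca, Wnt7b and Wnt4, 3 passed with the amount, against 0.34% higher over all genes tested. The 3 were Wnt7b, Wnt4 and Shh, and Shh is also the gene counted in the hedgehog list. The median log2 fold change was 0.36, with 0.66 without untreated rat 23.

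Genes lower with the amount of Upk3a were 4, namely Mas1, Tspan17, Selenom and Pla2g7. Mas1, the receptor for angiotensin-(1-7), was at 0.234, 0.328, 0.0550, 0 and 0.0510 TPM in the 5 rats and at 0.300 to 1.11 TPM in the 17 others, so that 4 of the 5 lay below all of them (log2 difference -0.50 for each doubling, SE 0.0937, edgeR adjusted p = 0.0144). Tspan17 was at 6.44, 5.81, 3.49, 3.16 and 1.44 TPM against 3.08 to 8.66 TPM. Without i.v. ASC rat 9, 0 genes were lower, and leaving out the other rats in turn gave 2 to 15.

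**Figure D3:**
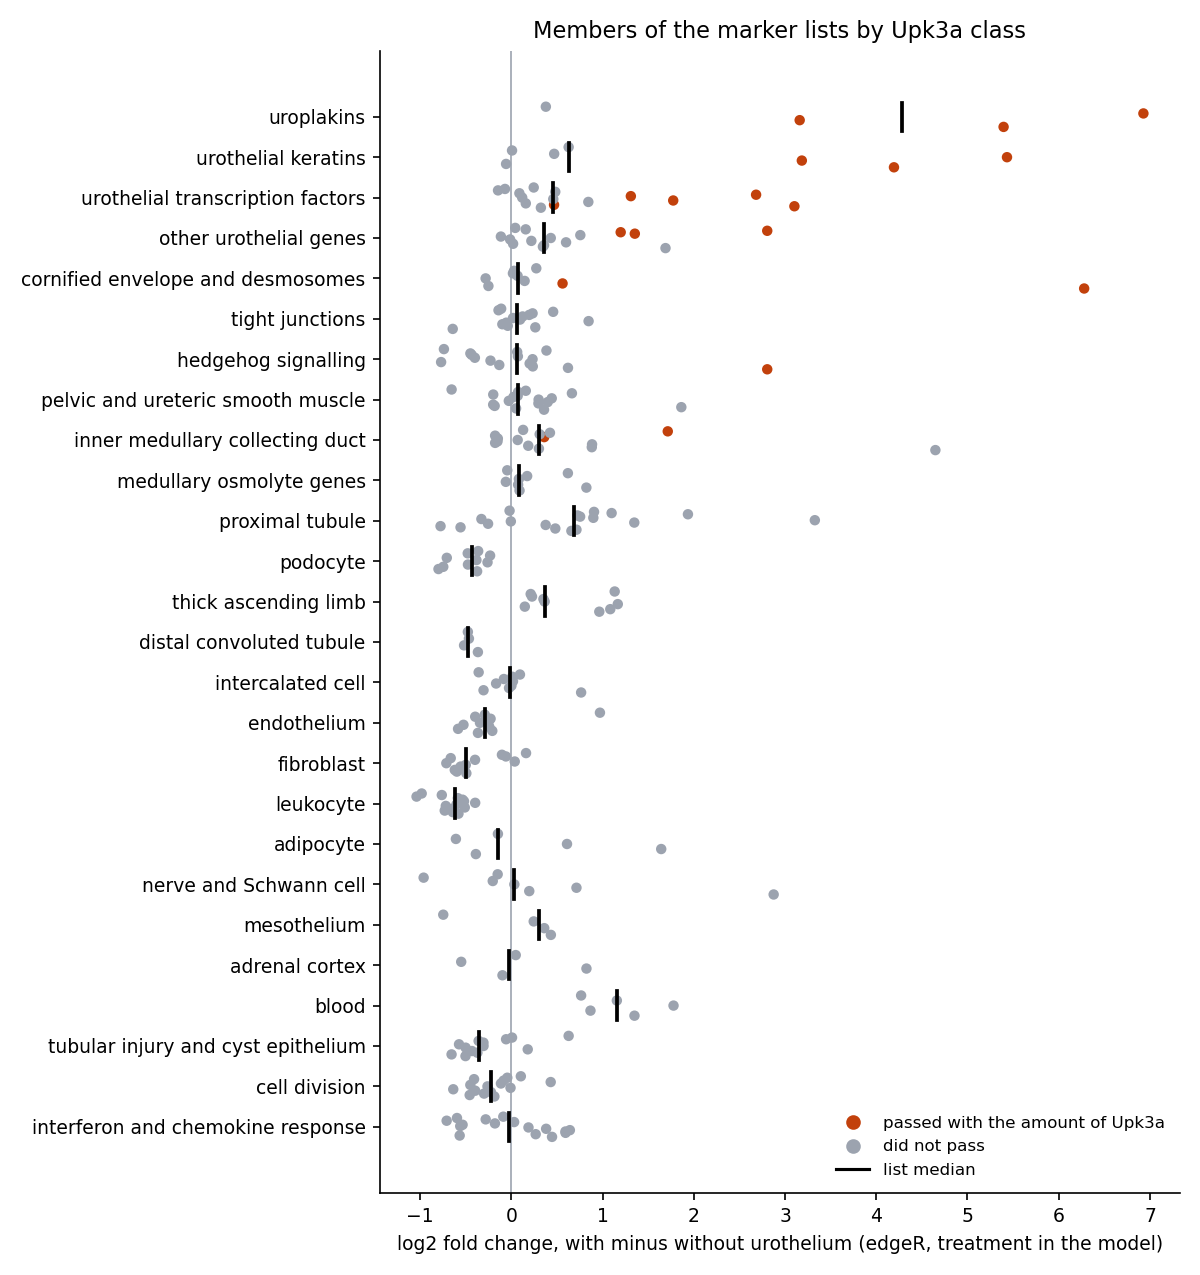
Log2 fold change between rats with and without urothelium (edgeR, treatment in the model) of every tested member of the 26 marker lists, with a black bar at each list's median and members that passed with the amount of Upk3a in orange. Orange points lie in the urothelial, cornified, hedgehog and inner medullary lists, and the median of the uroplakins, 4.28, is far to the right of the others, which lie between -0.62 and 1.16.

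Other cell types of the kidney and its surroundings were checked by their markers, and 0 members of their lists passed with the group or with the amount. Smooth muscle, which wraps the pelvis, did not separate the rats. Myh11 and Acta2, its contractile myosin and actin, were at 9.58 to 47.1 and 57.4 to 267 TPM in rats with urothelium, against 7.83 to 76.1 and 73.2 to 405 TPM without, and the 17 genes tested had a median log2 fold change of 0.07. The summed level of that list was 1012 to 1994 TPM with and 891 to 2581 TPM without urothelium. Nerve markers did not pass either. Mesothelin (Msln) was at 53.9 TPM in i.v. ASC rat 13 and at most 26.7 TPM without urothelium. Fat and adrenal tissue, which lie beside the kidney, did not pass, with Adipoq at 17.4 to 30.04 against 17.3 to 39.6 TPM, Plin1 at or below 0.803 TPM, Cyp11b2 at 0.429 to 1.49 against 0.513 to 1.70 TPM and Cyp11b1 at or below 0.114 TPM in all rats.

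Nephron markers overlapped between the groups. Slc34a1 and Lrp2, the phosphate transporter and the megalin receptor of the proximal tubule, were at 389 to 1405 and 58.9 to 162 TPM with and 227 to 1363 and 39.8 to 160 TPM without urothelium, with a list median of 0.69. Umod and Slc12a1 of the thick ascending limb had 2258 to 3331 and 273 to 624 TPM against 847 to 4445 and 111 to 540 TPM, and all 9 genes of that list had positive fold changes. These segment markers were present in every kidney with urothelium. Slc12a3 of the distal convoluted tubule was at 181 to 965 against 184 to 933 TPM. Of the intercalated cell, Slc4a1 was at 83.6 to 207 against 47.2 to 141 TPM and Slc26a4 at 154 to 243 against 79.6 to 323 TPM. The osmolyte genes Akr1b1 and Slc5a3 were highest in i.v. ASC rat 9, with 226 and 7.58 TPM against at most 99.4 and 4.64 TPM without urothelium.

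Markers of podocytes, vessels, stroma and immune cells did not pass either, and most of their fold changes were negative. All 10 podocyte genes had negative fold changes, with a median of -0.43, which was -1.05 without untreated rat 23 and -0.23 without i.v. ASC rat 14. Nphs1, the slit diaphragm protein nephrin, was at 39.8 TPM in untreated rat 23 but at 9.27 to 20.8 TPM in the 4 i.v. ASC rats, against 9.93 to 38.2 TPM without urothelium. The medians were -0.29 for 11 endothelial genes (-0.63 without untreated rat 23), -0.50 for 13 fibroblast genes and -0.62 for 14 leukocyte genes, all of the last negative. Pecam1 and Cdh5 were at 27.0 to 75.7 and 5.40 to 21.9 TPM against 39.0 to 86.4 and 6.01 to 26.5 TPM, Col1a1 and Col1a2 at 32.3 to 87.9 and 10.8 to 31.4 against 25.7 to 111 and 9.75 to 45.7 TPM, and Ptprc and Cd3e at 7.68 to 34.6 and 8.29 to 34.96 against 15.6 to 49.3 and 12.7 to 53.1 TPM. The lowest Ptprc and Cd3e of all 22 rats were those of i.v. ASC rat 3.

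Disease-related lists did not separate the groups, and 0 of their members passed with the group or with the amount. The median log2 fold change was -0.36 for 13 injury and cyst genes, 10 of them negative, and -0.43 to -0.20 when 1 rat was left out. For 15 division genes it was -0.22, with 13 negative, and -0.26 to -0.13 when 1 rat was left out. The 16 interferon and chemokine genes had a median of -0.03, with 8 negative and 8 positive. The injury genes Havcr1 and Lcn2 were at 41.0 to 135 and 204 to 489 TPM with and 48.6 to 186 and 175 to 890 TPM without urothelium. The division genes Mki67 and Top2a were at 1.68 to 3.33 and 1.83 to 3.91 against 1.45 to 3.82 and 1.67 to 5.51 TPM. Isg15 and Ifit1 of the interferon response had 46.5 to 117 and 0.312 to 1.37 TPM against 34.3 to 121 and 0.627 to 2.11 TPM. Blood stood apart in a single rat, since Hbb and Hba-a1 were at 1092 and 3498 TPM in untreated rat 23 and at 46.2 to 192 and 219 to 643 TPM in the 4 i.v. ASC rats, against 50.1 to 511 and 310 to 1900 TPM without urothelium. Untreated rat 23 was thus the only untreated rat with urothelium and also the rat with the most haemoglobin RNA, and without that rat the median log2 fold change of the blood list was -0.18 in place of 1.16.

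**Figure D4:**
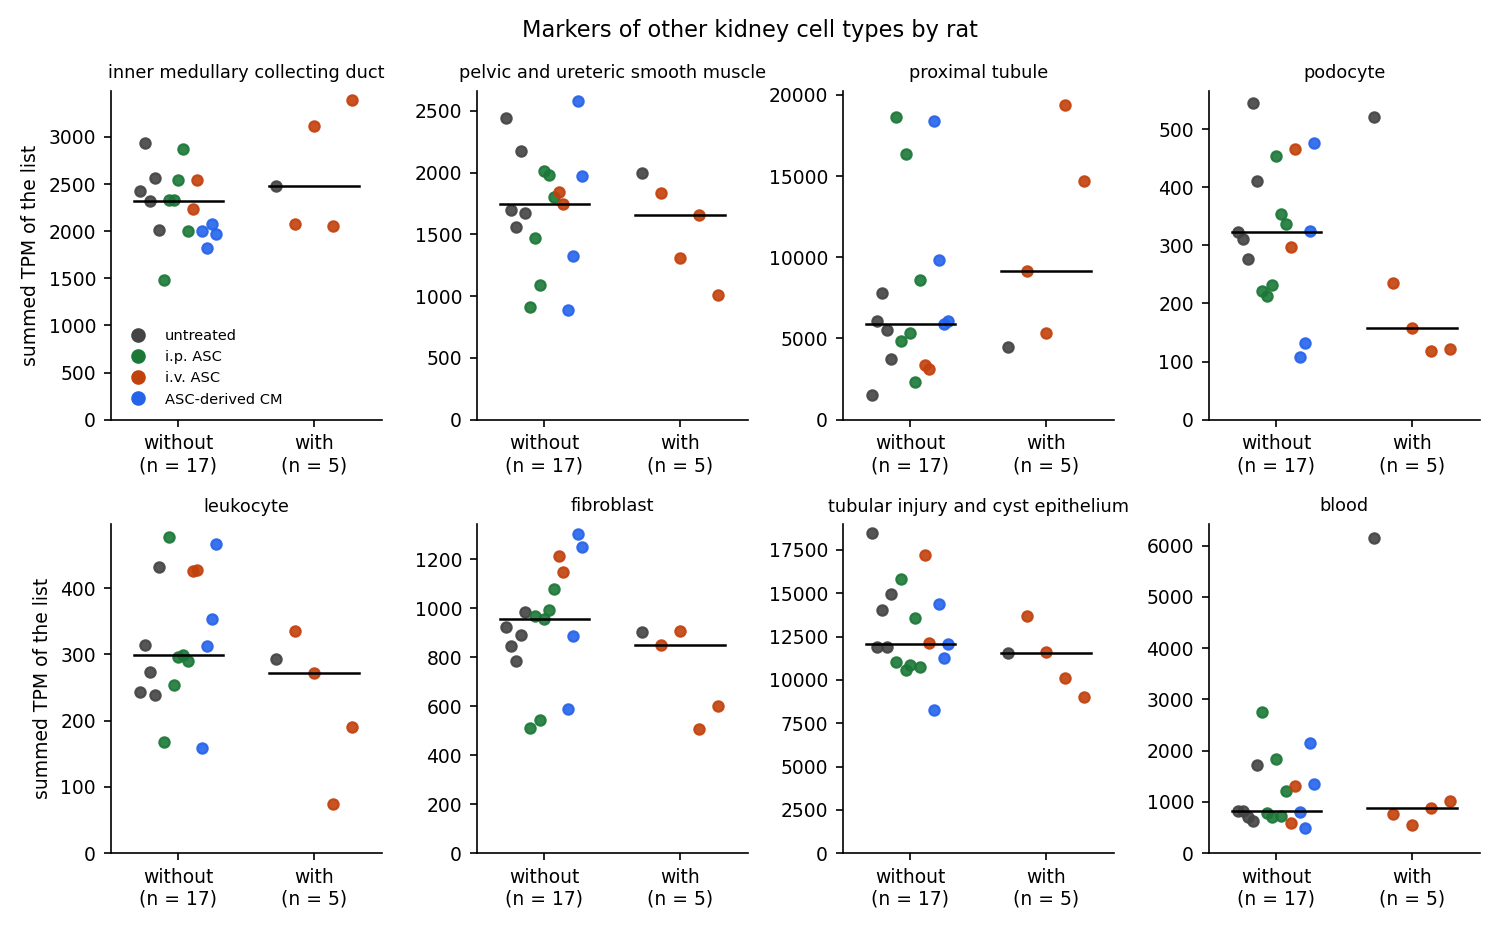
Summed TPM of 8 marker lists in the 17 rats without and the 5 rats with urothelium, 1 point for each rat, coloured by treatment, with a black line at the group's median. The groups overlap in every panel. Untreated rat 23 is the highest of all rats for blood, at 6137 TPM, and the 4 i.v. ASC rats with urothelium lie in the lower part of the podocyte range.

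The treatment comparisons were then run with and without the urothelial group in the model. Since the rats were grouped or kept by Upk3a, smaller fold changes of the genes that move with it follow from the rule, and the values are a description. For i.v. ASC against untreated rats, DESeq2 with treatment alone called 27 genes, 0.184% of 14672, with 23 higher and 4 lower. With the group in the model it called 0 of 15265, with 665 genes at an unadjusted p-value below 0.05. Among rats without urothelium, 2 i.v. ASC against 5 untreated, it called 0 of 15171 (237 at an unadjusted p-value below 0.05), a comparison of fewer rats. edgeR called 0 in each of these, and its count at an unadjusted p-value below 0.05 was 1132, 582 and 197.

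The 3 genes with the smallest p-values for i.v. ASC with treatment alone were Upk1b, Krt15 and Anxa8. The log2 fold change of Upk1b was 4.14 with treatment alone (DESeq2 adjusted p = 2.46e-06), 1.60 with the group in the model and 0.58 among rats without urothelium. Krt15 went from 6.91 to 0.85 and -0.52, and Anxa8 from 5.13 to 2.04 and 0.83. In the 2 i.v. ASC rats without urothelium, rats 8 and 14, Upk1a was at 0.820 and 0.321 TPM and Krt15 at 0.333 and 0.147 TPM. The Upk1a of rat 14 was the lowest of all 22 rats. Pparg had a log2 fold change of 1.94 with treatment alone (DESeq2 adjusted p = 0.0037), 0.999 with the group in the model and 0.26 among rats without urothelium. Of the 4 lower genes, Hcn4 went from -2.43 to -2.64 and -3.11, Magee1 from -0.70 to -0.63 and -0.46, Lama1 from -0.54 to -0.45 and -0.37, and Tia1 from -0.47 to -0.39 and -0.36. None of the 4 passed with the group in the model or among rats without urothelium. Hcn4 lay near the floor, at a mean of 0.240 TPM in untreated and 0.0397 TPM in i.v. ASC rats. Its DESeq2 adjusted p-values in the same order were 0.0271, 0.959 and 0.999.

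**Figure D5:**
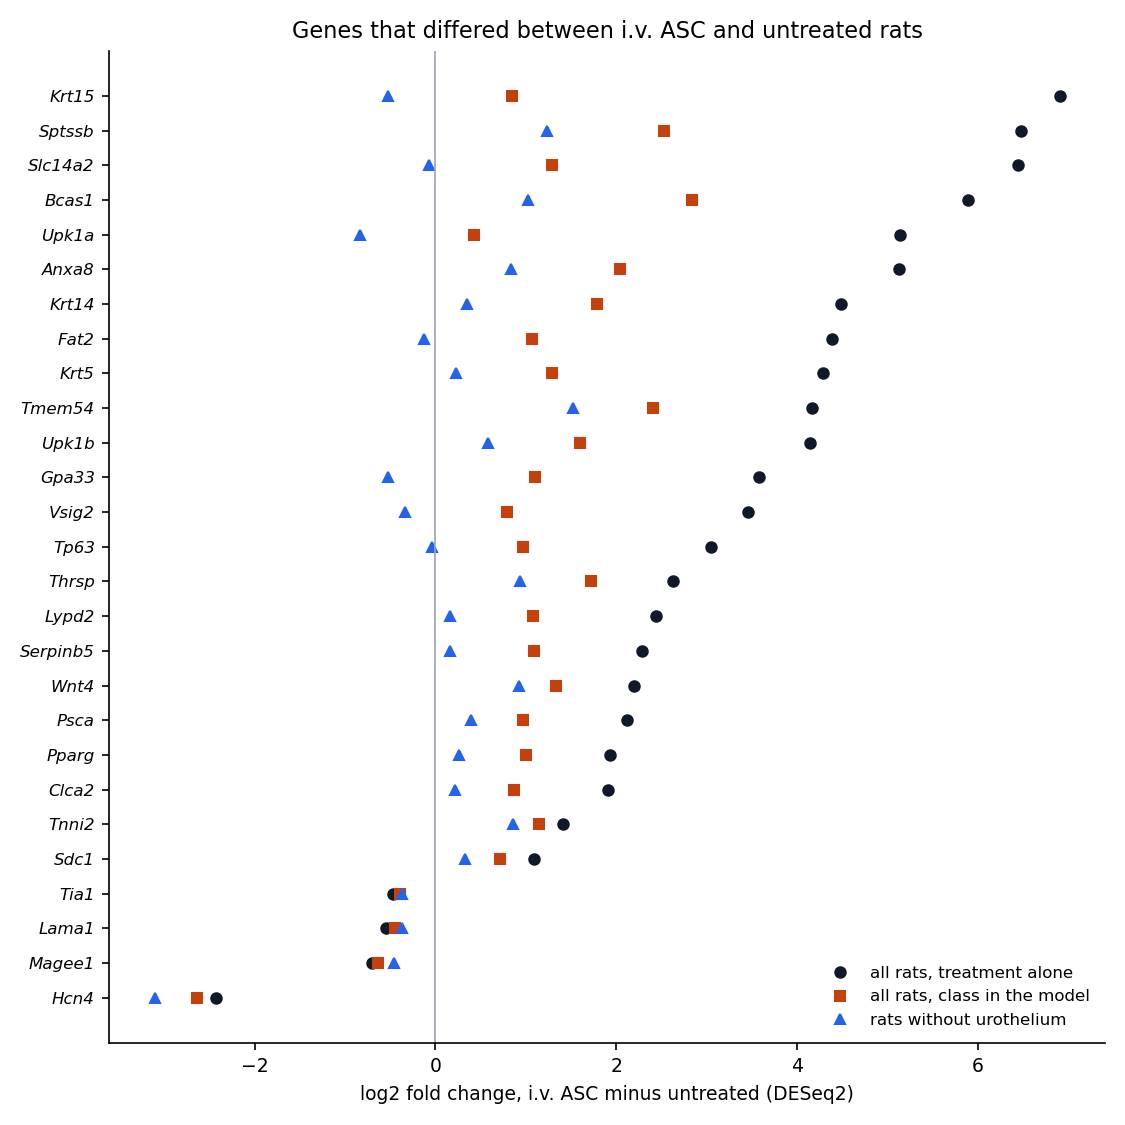
Log2 fold change between i.v. ASC and untreated rats (DESeq2) of the 27 genes called with treatment alone, from all rats with treatment alone (black circles), from all rats with the urothelial group in the model (orange squares) and from rats without urothelium (blue triangles). The circles of the 23 higher genes lie between 1.10 and 6.91, and for each of them the square and the triangle are closer to 0 or on its other side.

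The other treatments held no rat that reached the limit on Upk3a, although i.p. ASC rat 7 had 6.29 TPM of Upk1a and 2.06 TPM of Upk2 beside 6.90 and 2.53 TPM in untreated rat 23. i.p. ASC against untreated gave 0 calls by DESeq2 in all 3 settings, with 723, 1029 and 469 genes at an unadjusted p-value below 0.05, and 0 calls by edgeR with 500, 799 and 328. ASC-derived CM gave 4 calls by DESeq2 with treatment alone, 6 with the group in the model and 3 among rats without urothelium, 0.0262%, 0.0393% and 0.0198% of the genes tested. edgeR called 0 in each, with 849, 1310 and 794 genes at an unadjusted p-value below 0.05. The 6 DESeq2 calls included Gast, at a mean of 0.211 TPM (SD 0.516) in untreated rats and 0 TPM with ASC-derived CM. Its log2 fold change was -14.4 (SE 3.17) with the group in the model. It was -1.39 with treatment alone and 0.11 among rats without urothelium, and edgeR did not test Gast. Pcdhga7, a gamma protocadherin whose constant exons are shared by its cluster so that its counts are uncertain, was lower in all 3 (log2 fold change -0.76, -0.78 and -0.78), as was Med12l (-0.72, -0.73 and -0.72). Serpine2, an inhibitor of serine proteases, was higher in all 3 by DESeq2 (adjusted p = 0.0172, 0.0333 and 5.63e-07), at 22.8 TPM ± 2.47 (SD, n = 4) with ASC-derived CM and 11.3 TPM ± 1.68 (SD, n = 6) in untreated rats. Mast3, a kinase, was higher with treatment alone and with the group in the model (DESeq2 adjusted p = 0.0172 and 0.00742), and missed the threshold among rats without urothelium (DESeq2 adjusted p = 0.0584).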

How the data were processed

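The authors sequenced total RNA of 22 left kidneys on the BGISEQ-500 and deposited, for each rat, estimated counts for each gene and TPM values. The submitters' processing notes name Trim Galore 0.6.4, kallisto 0.4.6 and build rn6. The methods name DESeq2 and a human transcript package, and how transcripts were summed to genes is not given in the sources used here. Of 17334 Entrez IDs, 17179 were paired with a symbol through a RefSeq table (GRCr8, names only). The deposited TPM values set the 2 groups and are given for each rat. Estimated counts (14.1% not whole) were rounded and tested in R 4.3.3 with edgeR 4.0.16 (TMM, filterByExpr, quasi-likelihood test, threshold 0.05), with treatment and urothelial group in the model and Upk3a left out. DESeq2 1.42.0 and limma 3.58.1 (pseudocounts 1 and 0.1, mean TPM of at least 0.1) were alternatives, beside other size factors, filters, limits on Upk3a, a proximal tubule score and the omission of each rat. The fits that left out rats by amount or without a treatment term were chosen after seeing the data. Scripts were tested on simulated data. The rule for named genes took the defining 2 members of each list and the genes with the smallest p-values among those that passed. The rats' grouping, the 26 gene lists and the rule were chosen with earlier results of these data known. No 2 libraries of the same treatment group agreed within sampling noise. Each rat is a separate animal. Members found under no symbol in the files (among them Krt7, Grhl1, Sprr1b, Trpm6 and Lrrn4) were not analysed here. The defining members of some lists are not reported here.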

Additional observations from a re-analysis of the deposited data

Results flagged for a closer look

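Among 32 genes tested in 5 sets of rats, 160 tests in all, a Dixon test at 95% marked 7 values as far from the rest of their set, where chance gives about 1 in 20. On the log2 CPM scale with a prior count, Upk2 was at 0.32 in i.p. ASC rat 7 against -2.71 to -2.13 in the other i.p. ASC rats, the same rat that had the highest Upk3a below the limit. The other marked values lie at the floor of the counts. Among ASC-derived CM rats, Upk2 was at -2.11 in rat 21 and Gjb6 at -2.11 in rat 21, Sprr1a at -1.68 in rat 11 and Sptssb at -1.08 in rat 2, each above the rest, and Krt14 at -2.71 in rat 11 was below the rest. Gjb6 was at -2.14 in untreated rat 23 against -2.71 in the other untreated rats.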

How the results depend on the processing

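No paired analysis was possible because every rat has its own number and the groups share none. The count of genes called by group was 0 with RLE size factors, no filter, a mean count of at least 10, limits of 0.5 and 2 TPM on Upk3a (the same rats), limma, a proximal tubule score and i.v. ASC rats only. It was 37 with no treatment term, 48 with the amount of Upk3a, 12 with DESeq2 and 0 to 9 when 1 rat was left out. In settings chosen after seeing the data it was 460 with the amount in i.v. ASC rats only. With the amount it was 67, 63, 17, 35 and 59 without untreated rat 23 and i.v. ASC rats 3, 9, 10 and 13, and with no treatment term 64, 28, 10, 54 and 21. For treatments, DESeq2 called 27 genes for i.v. ASC without the group in the model, and 6, 4 and 3 for ASC-derived CM with it, without it and among rats without urothelium.

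The median log2 fold change of the uroplakins was 3.64 with the proximal tubule score and 5.08 with no treatment term, and 3.45 to 5.85 when 1 rat was left out. With the score it was 0.30 for urothelial transcription factors, 0.10 for mesothelium and 0.014 for proximal tubule, and with no treatment term 0.21 for other urothelial genes. Leaving out 1 rat gave 0.37 to 1.17 for keratins, 0.24 to 0.74 for transcription factors, 0.24 to 0.66 for other urothelial genes, 0.021 to 0.14 for tight junctions, -0.30 to 0.12 for hedgehog signalling, 0.15 to 0.60 for inner medullary collecting duct, -1.05 to -0.23 for podocytes, -0.63 to -0.20 for endothelium, 0.12 to 0.63 for mesothelium, -0.16 to 0.29 for adrenal cortex, -0.18 to 1.497 for blood and -0.53 to 0.13 for the interferon list. The cause of these shifts was not tested. The fold changes of the 32 genes followed reversed in 0 of the settings that tested them. Not every setting tested all 32, and with no treatment term 23 were tested. Since 28 of the 32 passed with the amount of Upk3a, a reversal was unlikely for these from the start. With 5 rats in the smaller group, 4 of them from 1 treatment, and genes such as Upk2, Sprr1a and Gjb6 at 0 in most rats without urothelium, the fold changes of these genes rest on few counts.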
